A study of Mus musculus with 4 samples.

Results

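Expression of 10 genes of the NRF2 antioxidant response was examined in mouse peritoneal macrophages of wild-type mice and of mice without myeloid Trim24 (TIF1a), each with and without the cytokine IL-4. The genes were taken by name as the rows whose gene ID maps to Nfe2l2, Keap1, Nqo1, Gclm, Gclc, Txnrd1, Srxn1, Prdx1, Slc7a11 or Gsr. All 10 had reads in each of the 4 libraries, out of 16403 gene IDs listed in at least 1 library. The labels name the libraries wild-type nontreat, wild-type IL-4, TIF1a-KO nontreat and TIF1a-KO IL-4, and each group holds 1 library. The mice were C57BL/6, aged 6 to 8 weeks by the study's methods. The knockout combined floxed Trim24 alleles with LysM-Cre, which is expressed from the Lyz2 locus in myeloid cells, so other cells in a peritoneal harvest keep Trim24. Wild-type littermates served as controls, and whether they carried Cre or the floxed alleles is not given in the sources used here. In the comparisons of genotypes below, an effect of Cre and one of the loss of Trim24 therefore cannot be told apart. In all groups the cells were elicited with 4% thioglycolate for 4 days, left to adhere for 4 h and kept in medium with 0.5% serum. The treated cells received IL-4 at 20 ng/mL for 6 h.

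The libraries held 11026033 to 11250099 expected reads, and 3 reads corresponded to 0.267 to 0.272 CPM, the share of a library's reads scaled to a fixed total. With 1 library per group no difference has a replicate check, every test on reads compares libraries rather than conditions, and intervals cover counting error only, since reads without molecular identifiers are not independent molecules. How many mice went into a library is not given in the sources used here. Trim24 was listed at 2.55 and 1.48 FPKM (reads scaled by transcript length and library total) in the wild-type libraries and at 0.06 and 0.14 FPKM in the knockout libraries. The IL-4 response genes Arg1, Chil3, Retnla, Mrc1 and Cish were called higher with IL-4 in both genotypes, 5 of 5. All 8 macrophage markers examined were listed, at a summed 15861 to 23444 FPKM, against 23.3 to 45.8 FPKM for 5 fibroblast markers and at most 8.96 FPKM for any of 7 lists of other cell types. Of the macrophage sum, Lyz2 gave 11289 and 10811 FPKM in wild-type cells without and with IL-4. In knockout cells it gave 5193 and 4761 FPKM. The median log2 ratio of the 8 markers in knockout against wild-type cells was 0.07 without and 0.08 with IL-4. Of the neutrophil markers S100a9, Ly6g and Retnlg were not listed, and of the eosinophil markers Epx and Ear6 were not. In such bulk samples fewer cells of a type and less RNA per cell cannot be told apart.

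NRF2, encoded by Nfe2l2, is a transcription factor that is made continuously and degraded continuously while KEAP1 holds it for ubiquitination. Electrophiles and oxidants modify cysteines of KEAP1, whereupon NRF2 accumulates, pairs with a small MAF protein and binds antioxidant response elements in its target genes. Much of this control acts on the protein, so the transcript levels of Nfe2l2 and Keap1 do not report the activity of NRF2. The targets examined here serve mainly 2 thiol systems. Slc7a11 imports cystine, Gclc and Gclm encode the catalytic and modifier subunits of the enzyme that starts glutathione synthesis, and Gsr reduces oxidized glutathione. Prdx1 removes peroxides with electrons from thioredoxin, Txnrd1 recharges thioredoxin, and Srxn1 restores peroxiredoxins that have been overoxidized. Nqo1 encodes a quinone reductase that is a widely used readout of NRF2.

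The core of the antioxidant response element, written TGACNNNGC, was searched on both strands of the RefSeq promoter windows of GRCm38.p6, which run from 250 bases before to 50 bases after each transcript start. The letters can overlap those of an AP-1 site, TGACTCA, and the Prdx1 match below holds that site in full on the opposite strand. Of the 10 genes, 8 had a window, and 5 of these held at least 1 match, against 14.0% of all 27025 genes with a window and 12.4% of 32851 windows. The matches show where these letters lie in genes whose levels are given below, and binding of NRF2 to them was not tested. Matched bases are in capitals, read 5′ to 3′ on the strand of the gene. A match on the opposite strand therefore appears as its reverse complement. The Nfe2l2 stretch is chr2:75704869-75704913 on the minus strand, and its match begins 240 bases before the start.
Nfe2l2: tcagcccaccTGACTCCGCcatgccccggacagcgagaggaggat
The Gclm stretch is chr3:122245397-122245457 on the plus strand, with its match 134 bases before the start.
Gclm: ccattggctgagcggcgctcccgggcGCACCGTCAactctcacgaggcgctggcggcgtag
The Txnrd1 stretch is chr10:82859088-82859148 on the plus strand, with its match 92 bases before the start of 1 of the 3 windows of this gene.
Txnrd1: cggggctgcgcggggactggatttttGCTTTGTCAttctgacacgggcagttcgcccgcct
The Srxn1 stretch is chr2:152105542-152105570 on the plus strand, with its match at base 29 of the transcript.
Srxn1: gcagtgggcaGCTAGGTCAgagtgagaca
The Prdx1 stretch is chr4:116685440-116685500 on the plus strand, with its match 133 bases before the start.
Prdx1: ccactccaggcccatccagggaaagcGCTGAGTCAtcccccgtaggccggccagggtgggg
No match lay in the windows of Keap1, Nqo1 and Slc7a11, which says only that these letters are not in these 300-base windows, and windows of Gclc and Gsr were not used here.

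The Slc7a11 window held the letters of a different element. The amino acid response element bound by ATF4, searched as TGATGNAA on both strands, occurred at 2 places, 66 and 47 bases before the start, and this search was chosen after the values of Slc7a11 were seen. Of all 27025 genes 4.51% had a match. Slc7a11 is known as a target of both NRF2 and ATF4, the transcription factor of the amino acid response. The part of ATF4 in the values given below was not tested. The stretch is chr3:50443643-50443689 on the minus strand, and capitals mark the 2 matches, the second of which lies on the opposite strand.
Slc7a11: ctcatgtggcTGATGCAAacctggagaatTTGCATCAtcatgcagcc
Among 10 genes of a list of ATF4 targets with a window, 3 held a match.

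The 10 transcripts spanned a wide range of levels. Averaged over the 4 libraries, Prdx1 was the most abundant at 433 FPKM, above 99.0% of listed genes. Nfe2l2 came next at 156 FPKM. Slc7a11 (66.2 FPKM), Txnrd1 (61.9 FPKM) and Srxn1 (43.5 FPKM) followed, then Gsr (24.7 FPKM), Keap1 (22.6 FPKM), Gclm (15.1 FPKM) and Gclc (10.6 FPKM). Nqo1 was the lowest at 1.10 FPKM, above only 36.5% of listed genes, and rested on 8 to 36 reads per library. Hence the widely used NRF2 readout was the member measured with the least precision in these macrophages. The order was not the same in every library. Txnrd1 lay above Slc7a11 in both untreated libraries and below it in both IL-4 libraries, and Gsr likewise lay above Keap1 without IL-4 and below it with IL-4. Together the 10 genes took 0.244% of expected reads in untreated wild-type cells, 0.222% in wild-type cells with IL-4, 0.218% in untreated knockout cells and 0.183% in knockout cells with IL-4.

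**Figure D1:**
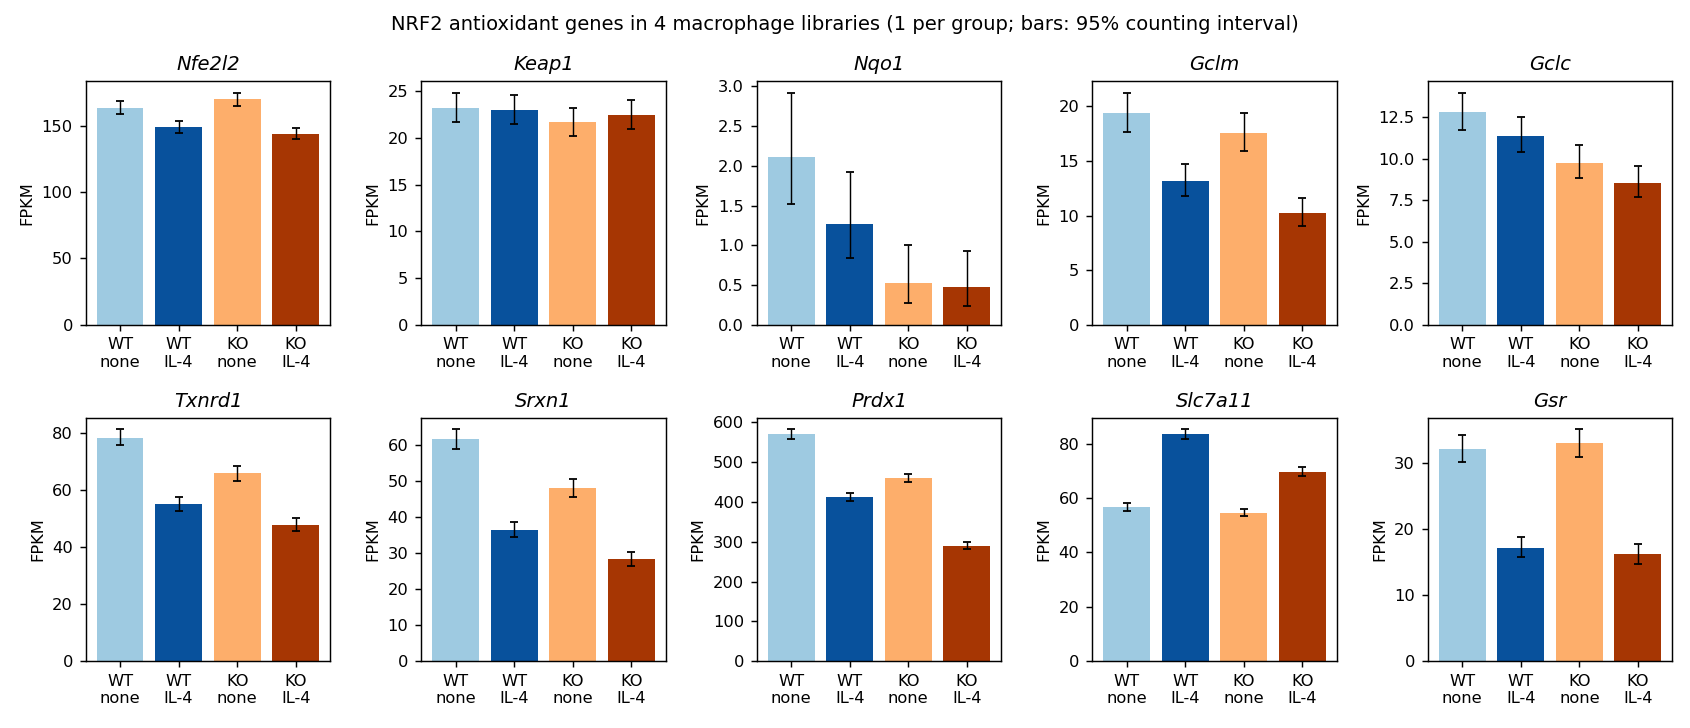
Level of each gene in FPKM (vertical axis, from 0, scaled for each panel) in the 4 libraries, wild-type (WT) or Trim24 knockout (KO), untreated (none) or with IL-4; bars are single libraries and error bars are 95% Wilson intervals of the read share, so they cover counting error only. Srxn1, Gsr, Gclm, Prdx1 and Txnrd1 were lower with IL-4 in both genotypes, Slc7a11 was higher, Keap1 stayed between 21.7 and 23.2 FPKM, and the Nqo1 bars of the knockout were the lowest.

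To ask how IL-4 alters this programme, the treated library of each genotype was set against its untreated library. Calls required an adjusted p under 0.05 (two-sided Fisher's exact test on rounded expected counts, Benjamini-Hochberg adjustment over all genes) and a fold above 1.5. In wild-type cells 2 of the 10 genes were called lower, Gsr and Srxn1, and none higher, where 7.88% of all genes were called lower and 4.91% higher, and 9.38% of those that averaged 1 FPKM or more were lower, a level that all 10 genes reached. In knockout cells 4 were called lower, Gclm, Gsr, Prdx1 and Srxn1, and again none higher, where 4.03% of all genes were called lower and 5.29% higher, and 5.03% of those with at least 1 FPKM lower. Gsr and Srxn1 were therefore called lower in both genotypes, against 2.91% of all genes and 3.71% at that level. The median log2 response of the 10 genes was -0.49 in wild-type and -0.35 in knockout cells, beside -0.01 and 0.01 over 10532 genes with at least 1 FPKM. Log2 ratios are of FPKM + 0.1 throughout, and the pair of genotypes shares no library in these comparisons.

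Gsr (gene ID 14782, chr8:33653238-33698162), the glutathione reductase, showed the largest decrease of the 10 genes in both genotypes. It was listed at 32.2 FPKM in untreated and 17.2 FPKM in IL-4-treated wild-type cells, and at 33.0 and 16.2 FPKM in knockout cells. The values without IL-4 lay close together, as did those with IL-4. The log2 ratio was -0.90 in wild-type (95% counting interval -1.05 to -0.74, adjusted p = 2.1e-30, Fisher's exact test) and -1.02 in knockout cells (-1.18 to -0.87, adjusted p = 3.0e-38), folds of 1.86 and 2.03.

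The 2 subunits of glutamate-cysteine ligase had log2 ratios of unlike size, and the difference between the 2 genes was not tested. Gclm (gene ID 14630, chr3:122245487-122267215), the modifier subunit, was listed at 19.4 and 13.2 FPKM without and with IL-4 in wild-type cells and at 17.6 and 10.2 FPKM in the knockout. Its log2 ratio of -0.55 in wild-type cells passed the adjusted p (1.5e-06, Fisher's exact test) but stayed under 1.5-fold, and that of -0.77 in knockout cells passed both (adjusted p = 3.8e-10). Gclc (gene ID 14629, chr9:77754535-77794489), the catalytic subunit, was at 12.8 and 11.4 FPKM in wild-type and 9.76 and 8.56 FPKM in knockout cells. Its log2 ratios of -0.17 (-0.35 to 0.02) and -0.19 (-0.40 to 0.03) were within counting error. The ratio of Gclm to Gclc in FPKM was 1.51 in untreated and 1.16 in IL-4-treated wild-type cells, and 1.80 and 1.20 in the knockout, so it was lower in both libraries with IL-4 than in both without. Standard errors of the log2 of this ratio were 0.09 to 0.12, from counting error only.

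Slc7a11 (gene ID 26570, chr3:50364936-50499087), the light chain of the cystine transporter, went the other way. It was listed at 56.8 FPKM in untreated and 83.5 FPKM in IL-4-treated wild-type cells, and at 54.6 and 69.7 FPKM in the knockout. Both treated libraries lay above both untreated ones. The log2 ratio was 0.55 (0.51 to 0.60) in wild-type and 0.35 (0.30 to 0.40) in knockout cells, past the adjusted p in both (5.6e-116 and 2.0e-41, Fisher's exact test) but under 1.5-fold. With the library totals scaled by TMM the wild-type ratio was 0.59 and was called. Its heavy chain partner Slc3a2 had log2 ratios of 0.51 and 0.53. The FPKM ratio of Slc7a11 to Slc3a2 was 0.406 and 0.419 in wild-type cells without and with IL-4. In knockout cells it was 0.417 and 0.368. That ratio sets transcripts of 9227 bases against those of 2574 bases and was not corrected for the length trend described below. For IL-4 in wild-type cells the fitted trend was -0.50 for Slc7a11 and 0.03 for Slc3a2. In knockout cells it was -0.14 and 0.03. The part of transcript length in the FPKM ratio was not tested.

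Among the thioredoxin and peroxiredoxin genes, Srxn1 (gene ID 76650, chr2:152105524-152111376), sulfiredoxin, was listed at 61.4 and 36.4 FPKM without and with IL-4 in wild-type cells and at 47.9 and 28.2 FPKM in knockout cells. The ranges with and without IL-4 did not overlap. Its log2 ratios were -0.75 (-0.86 to -0.65, adjusted p = 7.7e-45, Fisher's exact test) and -0.76 (-0.88 to -0.64, adjusted p = 4.2e-35). Prdx1 (gene ID 18477, chr4:116685599-116700000), a peroxiredoxin and the most abundant member, was listed at 569 and 412 FPKM in wild-type and at 459 and 290 FPKM in knockout cells. Here too both treated libraries lay below both untreated ones. Its log2 ratio was -0.47 in wild-type cells, under 1.5-fold, and -0.66 in knockout cells, where it was called (adjusted p = 1.3e-129, Fisher's exact test). Txnrd1 (gene ID 50493, chr10:82833951-82897724), the cytosolic thioredoxin reductase, was listed at 78.5 and 55.2 FPKM in wild-type and at 65.9 and 48.0 FPKM in knockout cells. Its log2 ratios of -0.51 and -0.46 passed the adjusted p in both genotypes but not the fold.

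The regulators were the steadiest of the 10 transcripts. Keap1 (gene ID 50868, chr9:21229730-21239332) was listed at 23.2 and 23.0 FPKM in wild-type and at 21.7 and 22.5 FPKM in knockout cells, and its log2 ratios of -0.01 (-0.15 to 0.13) and 0.05 (-0.09 to 0.19) were within counting error. With TMM scaling the wild-type ratio was 0.02. Nfe2l2 (gene ID 18024, chr2:75675513-75704663) was listed at 163 and 149 FPKM in wild-type and at 170 and 144 FPKM in knockout cells. Its log2 ratios of -0.14 and -0.24 passed the adjusted p (5.3e-05 and 2.5e-13, Fisher's exact test) and were folds of only 1.10 and 1.18. Nqo1 (gene ID 18104, chr8:107388225-107403205) was listed at 2.11 and 1.27 FPKM in wild-type cells (36 and 22 reads) and at 0.53 and 0.47 FPKM in knockout cells (9 and 8 reads). A change of Nqo1 with IL-4 was not detectable at this depth, with log2 ratios of -0.69 (-1.45 to 0.07) and -0.14 (-1.48 to 1.19).

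Without regard to fold, 6 of the 10 genes were lower at an adjusted p under 0.05 in each genotype, the same 6 (Gclm, Gsr, Nfe2l2, Prdx1, Srxn1 and Txnrd1), against 23.9% of genes with at least 1 FPKM in wild-type and 16.6% in knockout cells. Slc7a11 was higher by this rule in each genotype, where 21.2% and 18.3% of genes were. At any fold a gene with more reads passes more easily, and all members except Nqo1 lay above at least 68.0% of listed genes. The shares given here and below at any fold are not matched for read number. Of the 10 genes 8 had a log2 ratio below 0 in both genotypes, and 36.9% of genes did. An additive model of treatment and genotype over all 4 libraries (edgeR quasi-likelihood test, 1 residual degree of freedom) used the genotypes as 2 pairs. In it IL-4 lowered 5 of the 10 genes, Gsr (-0.95, adjusted p = 5.9e-06), Srxn1 (-0.75), Gclm (-0.65), Prdx1 (-0.55) and Txnrd1 (-0.47), and raised Slc7a11 (0.46, adjusted p = 0.0016), where 13.3% of genes kept in the model were lower and 12.0% higher. With limma on log2 FPKM the calls of Prdx1 (adjusted p = 0.060), Txnrd1 (0.065) and Slc7a11 (0.089) were lost.

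These calls rest on counting error or on the spread left over by the additive model. When a biological coefficient of variation of 0.1 was assumed, adjusted p values for Gsr and Srxn1 remained under 0.05 in both genotypes (edgeR exact test, highest 0.0093), and with 0.2 none of the 10 genes was called in any pair of libraries.

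**Figure D2:**
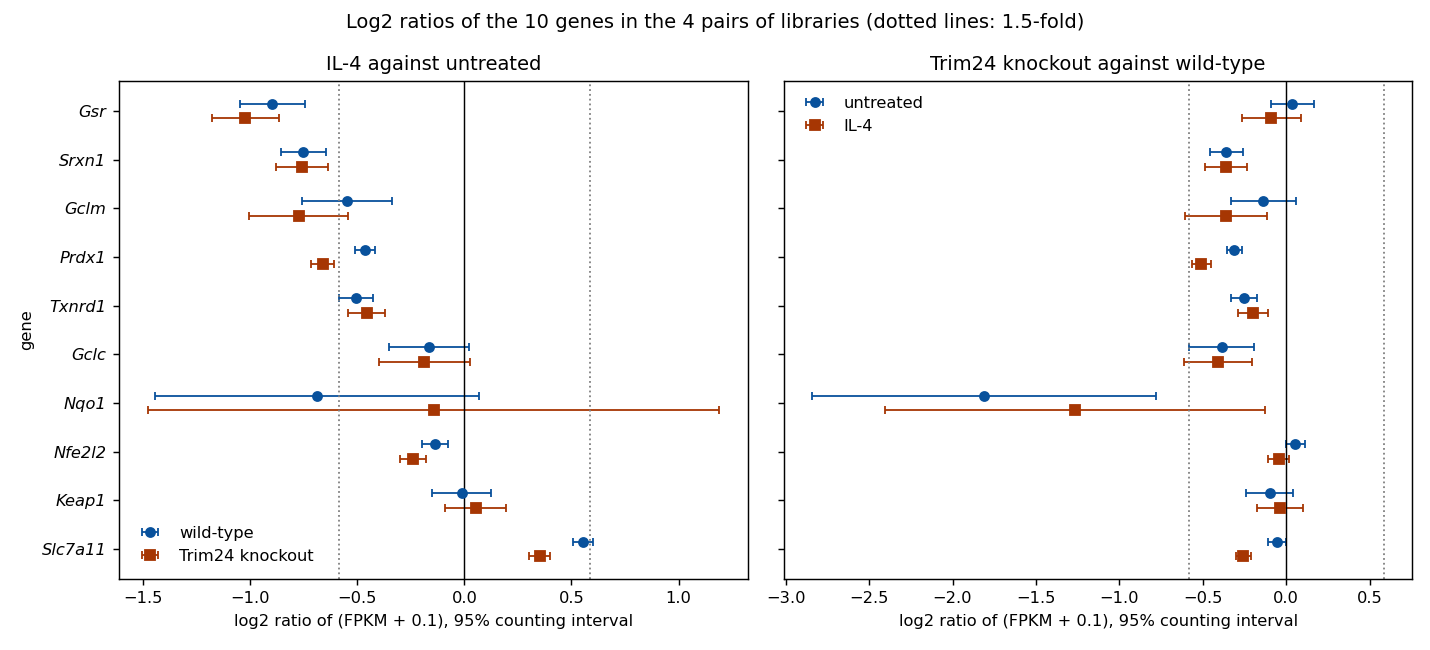
Log2 ratio of FPKM + 0.1 for each gene (horizontal axis) with IL-4 against without (left, by genotype) and in the Trim24 knockout against wild-type (right, by treatment); points are single pairs of libraries, bars are 95% counting intervals and dotted lines mark 1.5-fold. Gsr and Srxn1 lie past the lower dotted line in both genotypes on the left, and Nqo1 lies apart with wide intervals on the right.

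Whether loss of Trim24 alters the same genes was assessed next, by setting the knockout library against the wild-type library at each treatment. Without IL-4 only Nqo1 of the 10 genes was called, at 0.53 FPKM in the knockout against 2.11 FPKM in wild-type cells, and 0.742% of all genes were called lower. Its log2 ratio was -1.81 (-2.84 to -0.78, adjusted p = 0.0020, Fisher's exact test), from 9 against 36 reads. With IL-4 none of the 10 genes was called in either direction, where 3.81% of all genes were called and 0.764% called lower. At an unadjusted p under 0.05 by Fisher's exact test and any fold, 7 of the 10 were lower, where 16.5% of genes with at least 1 FPKM were. Here Nqo1, from 8 against 22 reads, had a log2 ratio of -1.27 (-2.40 to -0.13, adjusted p = 0.074, Fisher's exact test). The low values of Nqo1 fell in both knockout libraries. Its ratio depended on the constant added to FPKM before the logarithm, from -1.97 at 0.01 FPKM to -1.02 at 1 FPKM without IL-4 and from -1.42 to -0.63 with it. The call was lost with an assumed coefficient of variation of 0.1 (adjusted p = 0.063, edgeR exact test). In the additive model Nqo1 was lower in the knockout by -1.73 (adjusted p = 0.045, edgeR), a call lost with DESeq2, with limma on log2 FPKM and with all genes that had a read kept.

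Levels of fibroblast markers differed between the same untreated libraries. All 5 of these markers were called lower in the untreated knockout, with a summed level of 45.8 FPKM in wild-type and 23.3 FPKM in knockout cells, and their part in the Nqo1 value was not tested. With IL-4 the summed levels were 38.9 and 43.1 FPKM, and 1 of the 5 markers was called lower and 1 higher. Mesothelial markers summed to 4.57 and 2.33 FPKM without IL-4 and to 7.71 and 5.13 FPKM with it, also lower in the knockout of each pair, and their part was not tested either. None of these 5 markers was called between the untreated libraries, and with IL-4 Krt8 and Lrrn4 were called lower and Msln higher in the knockout.

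The other differences between genotypes were smaller than 1.5-fold. In knockout against wild-type cells Prdx1 had a log2 ratio of -0.31 (-0.36 to -0.27) without and -0.51 (-0.56 to -0.45) with IL-4, Srxn1 of -0.36 and -0.36, and Gclc of -0.39 and -0.41. Txnrd1 had ratios of -0.25 and -0.20. These 4 passed the adjusted p in both pairs. Gclm was at -0.14 (-0.33 to 0.06) without and -0.36 (-0.61 to -0.12) with IL-4, and Slc7a11 at -0.06 and -0.26. Gsr, which had the largest IL-4 response, was at 0.04 (-0.09 to 0.16) and -0.09 (-0.27 to 0.09), within counting error. Nfe2l2 (0.05 and -0.05) and Keap1 (-0.10 and -0.04) were likewise within it. At an adjusted p under 0.05 with any fold, 5 of the 10 genes were lower in the untreated knockout, against 4.08% of genes with at least 1 FPKM, and 6 with IL-4, against 11.2%. None was higher in either pair, where 5.18% and 17.2% of genes were. These shares too are not matched for read number. Of the 10 genes 8 lay below 0 in both pairs, against 30.8% of genes, and the median log2 ratio was -0.20 without and -0.31 with IL-4, beside -0.01 and 0.01 over all genes at that level. In the additive model Prdx1 (-0.41, adjusted p = 0.034, edgeR) was called beside Nqo1, where 0.373% of genes kept in the model were lower. The Prdx1 call was lost with limma on log2 FPKM (adjusted p = 0.47) and with all genes that had a read kept (adjusted p = 0.38, edgeR). With a coefficient of variation of 0.1 none of these ratios passed, the lowest adjusted p apart from that of Nqo1 being 0.39 for Prdx1 with IL-4 (edgeR exact test).

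In order to compare the IL-4 responses themselves, the ratio in knockout cells was set against that in wild-type cells with an exact conditional test on the counts of the 4 libraries. None of the 10 genes passed both the adjusted p and a 1.5-fold difference, a rule that 2.23% of all genes passed in either direction. At an unadjusted p under 0.05 in the exact test and any fold, 3 of the 10 were lower, where 8.46% of genes with at least 1 FPKM were. At any fold Prdx1 (-0.20, -0.27 to -0.13, adjusted p = 2.1e-06) and Slc7a11 (-0.20, -0.27 to -0.13, adjusted p = 4.0e-07) passed in this exact test, against 4.0% of genes with at least 1 FPKM that were lower. Prdx1 had a larger decrease in the knockout libraries and Slc7a11 a smaller increase, each by a ratio of 1.15. This test covers counting error only, and no assumed coefficient of variation was applied to the difference. The differences for Srxn1 (-0.01, -0.16 to 0.15), Txnrd1 (0.05, -0.07 to 0.17) and Gsr (-0.13, -0.35 to 0.09) were within counting error. The interval for Nqo1, -0.99 to 2.08, left its difference unmeasured at this depth.

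Transcript length bears on the Slc7a11 values. Its transcripts, at 9227 bases, were the longest of the 10, and those of the other members ran from 1417 to 3442 bases. Over 10443 genes, Spearman's rho between log2 ratio and transcript length was -0.372 for IL-4 in wild-type cells, -0.109 for IL-4 in knockout cells, 0.129 for knockout against wild-type without IL-4 and 0.518 with IL-4, given as a description across genes of the same libraries. With this trend removed, Slc7a11 was higher with IL-4 by 1.05 in wild-type and 0.49 in knockout cells, the first of which was called, and it was lower in the IL-4-treated knockout by -0.69, which was called as well. Gclm in wild-type cells then stood at -0.61 and Prdx1 at -0.58, of which the former was called and the latter stayed just under the fold. No other member moved by as much as Slc7a11 for IL-4 in wild-type cells or for the knockout with IL-4, and the part of transcript length in the deposited values was not tested.

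**Figure D3:**
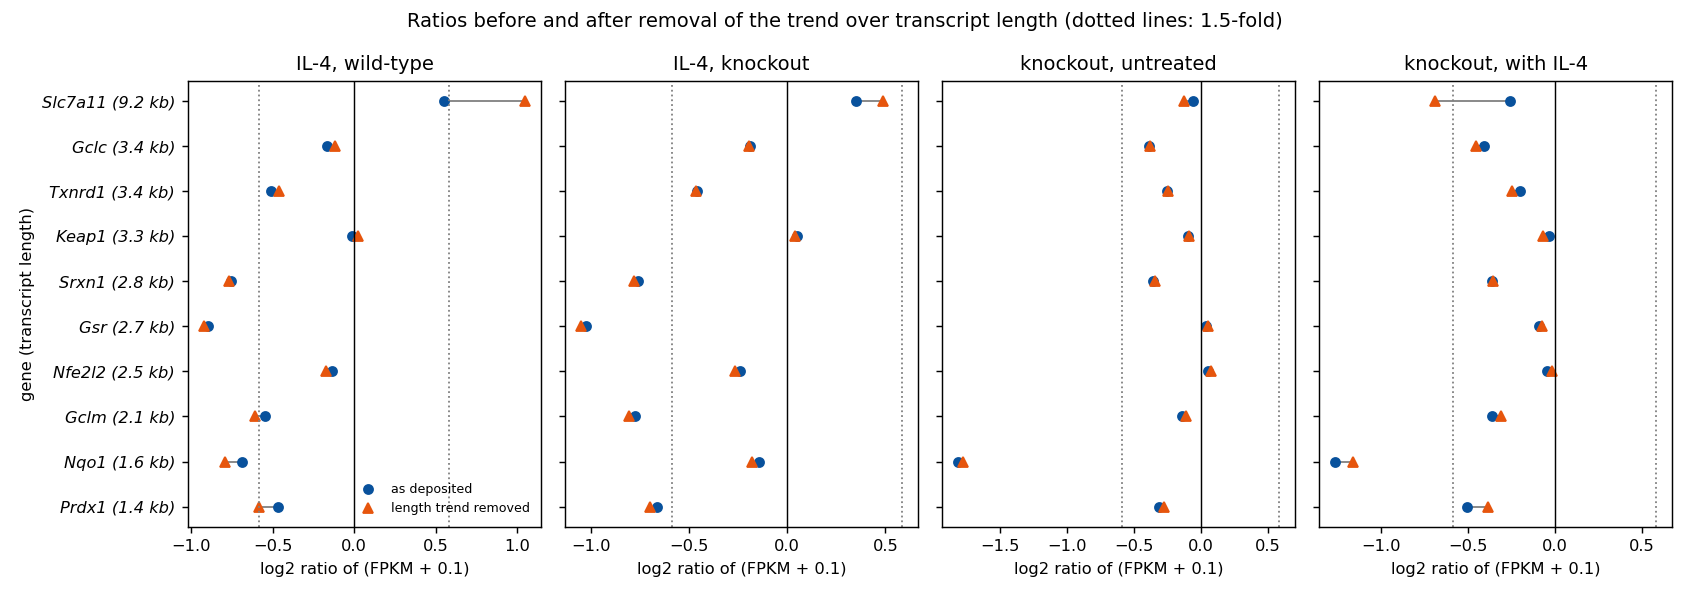
Log2 ratio of FPKM + 0.1 (horizontal axis) of each gene in the 4 pairs of libraries, as deposited (circles) and after removal of the trend over transcript length (triangles), with genes ordered by transcript length and dotted lines at 1.5-fold. Slc7a11 moves from 0.55 to 1.05 for IL-4 in wild-type cells and from -0.26 to -0.69 for the knockout with IL-4, while the shorter transcripts move less.

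The wider pathway was examined with lists drawn up by function. Of 12 regulators and partners of NRF2, Maff, a small MAF protein that pairs with NRF2, was the 1 gene called with IL-4, at 2.70 and 6.00 FPKM without and with IL-4 in wild-type cells and 2.28 and 5.79 FPKM in the knockout (log2 ratios 1.12 and 1.31). Over all genes 4.91% were called higher in wild-type and 5.29% in knockout cells. Bach1, a repressor that competes with NRF2 for response elements, had ratios of -0.05 and 0.27. Mafg (-0.09 and -0.05) and Sqstm1 (0.01 and -0.04), the autophagy receptor that can bind KEAP1, were within counting error. Between genotypes no gene of this list was called, where 3.81% of all genes were called in either direction with IL-4. Bach1 was at 22.2 and 25.4 FPKM in untreated wild-type and knockout cells and at 21.5 and 30.7 FPKM with IL-4, with log2 ratios of 0.19 and 0.51 that passed the adjusted p only. Its transcript is 5858 bases long, and with the length trend removed its ratios between genotypes were 0.17 and 0.26 and those with IL-4 were 0.24 in wild-type and 0.34 in knockout cells, a change of sign in wild-type cells.

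Of 28 other NRF2 target genes, 1 was called higher and 2 lower with IL-4 in each genotype, the same genes in both. Over all genes 4.91% were called higher and 7.88% lower in wild-type cells, and 5.29% and 4.03% in knockout cells, so the shares of this list lay near the background. The ferritin heavy chain gene Fth1, which stores iron, was listed at 26195 and 15800 FPKM in wild-type and at 22696 and 13250 FPKM in knockout cells (log2 ratios -0.73 and -0.78). Akr1b8, an aldo-keto reductase, had ratios of -0.75 and -0.82, and Cbr3, a carbonyl reductase, of 0.63 and 0.92. Hmox1, heme oxygenase, which NRF2 and BACH1 both regulate, was at 197 and 188 FPKM in wild-type and 174 and 156 FPKM in knockout cells, with ratios of -0.07 and -0.16. The median over the 24 of these genes with at least 1 FPKM was -0.15 in wild-type and -0.20 in knockout cells, closer to 0 than the medians of the 10 genes.

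Of 10 glutathione partners, 9 were listed, and 3 were called higher with IL-4 in both genotypes and none lower. Over all genes 4.91% were called higher in wild-type and 5.29% in knockout cells. Glutaredoxin, Glrx, which reduces proteins joined to glutathione, was listed at 18.5 and 71.0 FPKM in wild-type and 16.5 and 66.3 FPKM in knockout cells (log2 ratios 1.93 and 2.0). The glutathione-degrading enzyme Chac1 had ratios of 1.13 and 2.14, and the glutamine transporter Slc1a5 of 0.76 and 0.85. In both genotypes Gsr was called lower with IL-4 while these 3 genes of the list were called higher. Of 13 thioredoxin, peroxiredoxin and related enzymes none was called with IL-4 in wild-type cells, and Txn1, thioredoxin itself, was called lower in knockout cells (-0.59, against -0.28 in wild-type cells, where it was under the fold). The share called lower among all genes was 7.88% in wild-type and 4.03% in knockout cells.

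Of 12 genes of the ATF4 response, which includes amino acid synthesis and transport, 9 were called higher with IL-4 in each genotype and none lower. These were not all the same genes in both. The share called higher among all genes was 4.91% in wild-type and 5.29% in knockout cells. Phgdh, the first enzyme of serine synthesis, was listed at 20.7 and 72.1 FPKM in wild-type and 12.7 and 58.3 FPKM in knockout cells, log2 ratios of 1.80 and 2.19. Atf4 itself had ratios of 0.74 and 0.67, Asns, asparagine synthetase, 1.22 and 1.59, and Ddit3, a stress-induced transcription factor, 1.13 and 1.04. Psat1, Mthfd2 and Trib3 were also called in both genotypes. Between genotypes Asns and Phgdh were called lower in the untreated knockout and Sesn2, named here after its values were seen, was called higher in the IL-4-treated knockout (0.61), and no gene of any of these lists was called in both genotype pairs. Over all genes 0.742% were called lower in the untreated knockout, and 3.81% were called in either direction with IL-4.

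**Figure D4:**
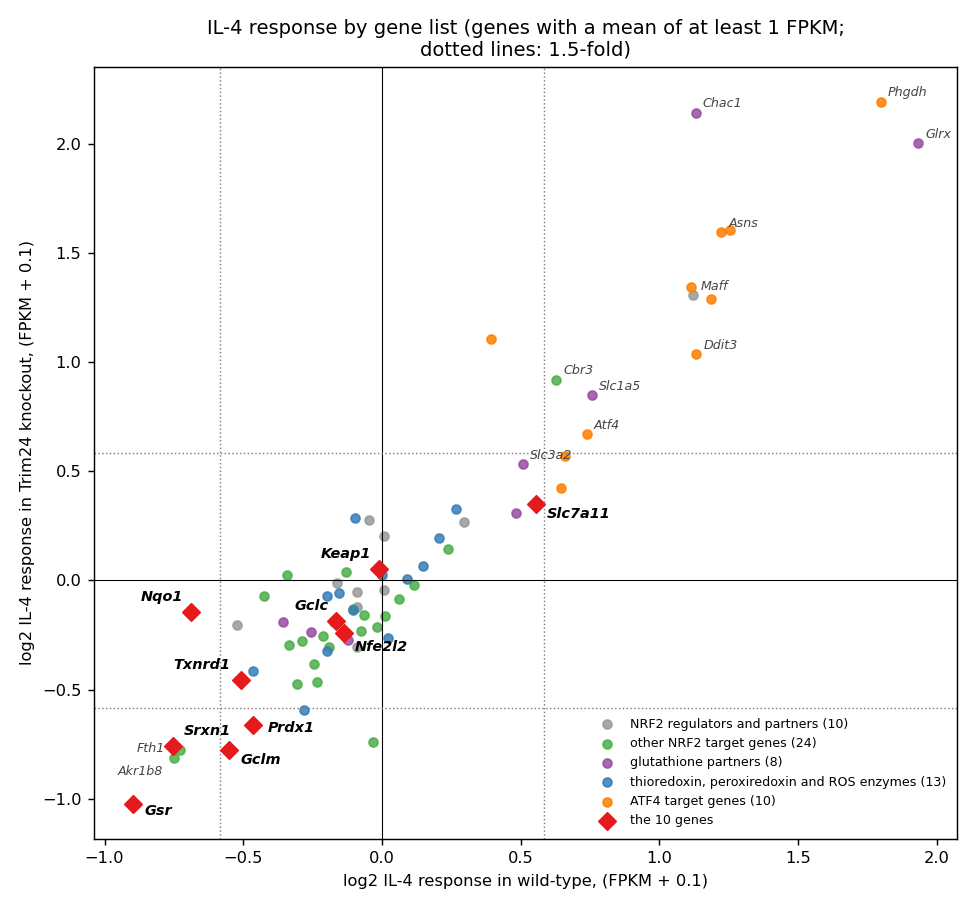
Log2 IL-4 response in wild-type (horizontal axis) and Trim24 knockout cells (vertical axis), as ratios of FPKM + 0.1, for the 10 genes (diamonds) and for genes of the 5 pathway lists that averaged 1 FPKM or more (circles); each point is 1 gene and dotted lines mark 1.5-fold. Gsr and Srxn1 lie at the lower left with Fth1 and Akr1b8. Slc7a11 lies at the upper right, the side of the ATF4 genes and also of Glrx, Slc1a5, Cbr3 and Maff, nearer to 0.

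The genes whose pattern over the 4 libraries was most like that of 3 members were found by the root mean square distance of centred log2(FPKM + 0.1), over 4 libraries and among genes that averaged 5 FPKM or more. For Nfe2l2 they were Brip1os (0.0038), Dnajb2 (0.011) and Haghl (0.014), and for Slc7a11 Parl (0.0097), Exosc2 (0.010) and Emc2 (0.015). For Nqo1 the nearest genes were at larger distances, Snord104 (0.143), Lyz2 (0.294) and Fabp3 (0.392). This distance grows with the size of a gene's own differences, so it cannot be compared between members. The highest FPKM over the lowest was 4.49 for Nqo1, 1.18 for Nfe2l2 and 1.53 for Slc7a11. Nqo1 itself, at a mean of 1.10 FPKM, lay under the minimum of 5 FPKM and rested on few reads. Without and with IL-4, Lyz2 stood at 11289 and 10811 FPKM in wild-type cells and at 5193 and 4761 FPKM in knockout cells, and it is the gene that carries the Cre transgene.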

How the data were processed

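Total RNA of 4 macrophage libraries was sequenced and, per the study's methods, the authors mapped the reads to GRCm38 with Bowtie and quantified genes with RSEM; versions are not given in the sources used here. The deposited expected count is the number of reads RSEM assigned to a gene, and the deposited FPKM divides it by effective length and library total, with 2 decimals. Genes not listed were set to 0. Expected counts were rounded for tests. They were whole in every library for 9 of the 10 genes; those of Slc7a11 were not, which RSEM gives where reads match more than 1 gene. Whether counting used strand is not given in the sources used here, and 4 of the 10 genes (Gclm, Gsr, Prdx1 and Txnrd1) overlap other annotated genes, so their values are less certain.

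Gene IDs were matched to RefSeq GRCm38.p6 (16365 of 16403), whose positions are given. The genes and lists were chosen with earlier results of these data known. Pairs were compared by Fisher's exact test with Benjamini-Hochberg adjustment over all genes with a read in the pair, with standard errors and intervals from counts plus 0.5 and a pseudocount of 0.1 FPKM. The difference of the responses used an exact conditional test on genes with a read in all 4 libraries. The additive model used edgeR 4.0.16 (TMM, filterByExpr, 11791 genes) in R 4.3.3. Other steps used Python 3.11.15, scipy 1.17.1 and statsmodels 0.14.6. The pair test, the test of the difference, the test with the length trend removed and the IL-4 term of the additive model were first run on simulated data. Apart from that of the additive model, these simulations held counting error only. The genotype term, the tests with assumed variation, DESeq2 and limma were not simulated. Named pathway genes were those called in 1 direction in both IL-4 pairs or both genotype pairs, at most 6 a list, with Hmox1, Bach1, Mafg, Sqstm1, Slc3a2, Txn1 and Atf4 always. Alternatives were pseudocounts of 0.01 and 1, a fold of 2, CPM, TMM scaling, a minimum of 1 FPKM, assumed coefficients of variation of 0.1, 0.2 and 0.4, removal of a lowess trend (fraction 0.3) over transcript length, and for the additive model upper-quartile scaling, all genes with a read, DESeq2 1.42.0 and limma 3.58.1 on log2 FPKM.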

Additional observations from a re-analysis of the deposited data

Results flagged for a closer look

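For 2 of the 10 genes the IL-4 response differed between genotypes by a test of the difference itself, at an adjusted p under 0.05 and any fold. By this rule 4.0% of genes with at least 1 FPKM were lower. Neither of the 2 reached a 1.5-fold difference, so neither was called, where 2.23% of all genes were called in either direction. The log2 response of Prdx1 in the knockout minus that in wild-type cells was -0.20 (exact conditional test, adjusted p = 2.1e-06), from decreases of -0.66 and -0.47. It was -0.11 (adjusted p = 0.045 in the same exact test) with the trend over transcript length removed. For Slc7a11 the difference was -0.20 (exact conditional test, adjusted p = 4.0e-07), from increases of 0.35 and 0.55, and it was -0.56 with the trend removed. Both tests cover counting error only, with 1 library in each of the 4 groups, and no assumed coefficient of variation was applied to them.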

How the results depend on the processing

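Counts of the 10 genes called changed with the assumed variation, the fold, transcript length and the tool. For IL-4 in wild-type cells 2 genes were called, 4 with the length trend removed, 0 at a fold of 2, and 0 with an assumed coefficient of variation of 0.2 or 0.4, where calls over all genes went from 1994 to 258 and 45 (861 at a fold of 2). For IL-4 in knockout cells the count was 4, and was 1 at a fold of 2 and 0 with a variation of 0.2 or 0.4 (1466 calls over all genes against 711, 272 and 33). For the untreated knockout it was 1, and 0 with a variation of 0.1, 0.2 or 0.4 (247 calls over all genes against 68, 15 and 7). For the knockout with IL-4 it was 0, and 1 with the length trend removed (594 calls over all genes against 316). In the additive model IL-4 called 6, and 3 with limma (2987 calls over all genes against 1015), and genotype called 2, but 4 with upper-quartile scaling, 6 with the length trend removed, 1 with DESeq2 and 0 with limma or with all genes with a read kept (196 calls over all genes against 494, 624, 65, 15 and 24). Calls over all genes also moved by more than 1.5 times where the members' count did not: for IL-4 in wild-type cells to 1321 and in knockout cells to 970 with a variation of 0.1, for the untreated knockout to 156 with a pseudocount of 1 and 128 at a fold of 2, for the knockout with IL-4 to 322, 171, 120, 21 and 11 (pseudocount of 1, fold of 2, variation of 0.1, 0.2 and 0.4), for the difference of responses from 299 to 156, 90 and 91 (pseudocount of 1, fold of 2, length trend removed), and for IL-4 in the additive model to 1675 with all genes with a read and 1223 with DESeq2. The other 39 counts of called members stayed within 1.5 times the reported count. Single ratios changed sign for Keap1 with IL-4 in wild-type cells (0.0248 with TMM scaling, 0.0221 with the length trend removed), Txnrd1 in the difference of responses (-0.0039, length trend removed), Nfe2l2 in the genotype effect (-0.0297, upper-quartile) and Gsr in the genotype effect (0.0023, length trend removed), all with adjusted p over 0.05 in both settings; of the other alternatives to single ratios, 516 kept their direction and side of the threshold, 28 lost a call and 11 gained one. The causes were not tested. No paired analysis was possible because each group holds 1 library, so no replicate number can serve as a block; the pairs of the additive model are the genotypes. Leaving out a library from the additive model leaves no residual degrees of freedom and was not run. Nqo1, at 8 to 36 reads, is the member that depth limits.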

Other observations

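In the additive model, 25 of the 28 other NRF2 target genes had enough reads, and 7 of these were lower with IL-4 and 1 higher (edgeR quasi-likelihood test), where 13.3% of all genes kept were lower. The examples that follow were chosen after their values were seen. Among the 7 were G6pdx and Pgd, both enzymes of the pentose phosphate pathway that make NADPH. G6pdx was listed at 101 and 82.1 FPKM without and with IL-4 in wild-type cells and at 95.6 and 68.8 FPKM in the knockout, an effect of -0.38 (adjusted p = 0.0060, edgeR). Pgd was listed at 229 and 182 FPKM and at 199 and 162 FPKM, an effect of -0.30 (adjusted p = 0.016, edgeR). Catalase, Cat, is not 1 of the 7 and comes from the list of 13 thioredoxin, peroxiredoxin and related enzymes. Of that list 2 genes were lower with IL-4 and 1 higher, where 13.3% and 12.0% of all genes kept were. Cat was listed at 92.5 and 67.0 FPKM in wild-type and 73.6 and 55.2 FPKM in knockout cells, an effect of -0.43 (adjusted p = 0.0021, edgeR).

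In the same model the glutathione peroxidase Gpx4, which reduces lipid peroxides, was higher with IL-4, at 336 and 469 FPKM in wild-type and 320 and 396 FPKM in knockout cells, an effect of 0.41 (adjusted p = 0.0037, edgeR). Txnip, which binds thioredoxin, was higher in the knockout, at 69.5 and 77.1 FPKM in wild-type cells without and with IL-4 and 92.7 and 96.9 FPKM in the knockout, an effect of 0.37 (adjusted p = 0.045, edgeR). Its call was not followed in the alternative settings. Most genotype calls over all genes were lost with limma or with all genes with a read kept, as given above.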
